A study of Rattus norvegicus with 241 samples.

Results

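The contractile program of the rat mammary gland was followed through 8 genes, ACTA2, ACTG2, CNN1, MYH11, MYL9, MYLK, TAGLN and OXTR. They were found by symbol, ignoring case, and are 8 of 16820 genes in the bulk tables and 8 of 18566 in the single-cell tables. Their levels were compared between basal cells and the mural cells of blood vessels (vascular smooth muscle cells and pericytes), between virgin and parous rats, and between rats given vehicle and rats given TGFBRi, the TGFβ receptor inhibitor that the labels spell LY22157299 (75 mg/kg by oral gavage, 2 doses a day for 10 days, or 21 days in the estradiol experiment). The series holds 202 bulk RNA-seq samples of sorted cells and 39 single-cell libraries from ACI and SD rats. No group carries a transgene or a deleted gene. Young virgin rats were treated around puberty and taken on day 0 (ACI and SD), day 7 or day 14 (ACI) after the last dose, with 3 ACI rats or 4 SD rats in each bulk basal group. Single-cell libraries came from young rats on day 0, with 3 vehicle rats and 3 (ACI) or 6 (SD) TGFBRi rats. Adult ACI rats, virgin or parous, were taken on day 0 after the last dose, with 4 rats a group in the basal fraction. SD rats of the carcinogen experiment were all injected with NMU (N-nitroso-N-methylurea) after 10 days of TGFBRi or vehicle, and their glands were taken when control rats bore palpable tumors. They fall into tumor-bearing vehicle, tumor-bearing TGFBRi and tumor-free TGFBRi rats, with 3 rats a group in the basal fraction. ACI rats of the estradiol (E2) experiment gave luminal and CD45+ cells, with a vehicle and a TGFBRi group without E2 (4 and 3 rats, tumor-free) and, with E2 pellets, tumor-bearing vehicle (4), tumor-bearing TGFBRi (2) and tumor-free TGFBRi rats. The last gave 7 samples a fraction, of which 4 carry 1 rat's label and were averaged to 1. Basal cells were gated as CD24+CD29high, luminal cells as CD24+CD29low, and leukocytes as CD45+.

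Myoepithelial cells are the contractile basal cells of the mammary epithelium. They squeeze milk from the alveoli and ducts when oxytocin from the pituitary reaches the oxytocin receptor on their surface, and they share much of their contractile machinery with smooth muscle. ACTA2 and ACTG2 encode the α and γ smooth muscle actins, and MYH11 the smooth muscle myosin heavy chain. MYL9 encodes the regulatory light chain, whose phosphorylation by the kinase encoded by MYLK starts contraction. CNN1 (calponin) and TAGLN (transgelin) encode actin-binding proteins of differentiated smooth muscle, and OXTR encodes the oxytocin receptor. ACTA2 and ACTG2 encode nearly the same protein, as do the striated muscle actins ACTA1 and ACTC1. Any reads shared between these genes are uncertain in either kind of table, and how many there are was not counted.

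CArG boxes, bound by serum response factor, are the best known control elements of smooth muscle genes, and are given here because all 8 members rose together in whole-gland basal-like cells. In sorted basal-like cells the members went in both directions, and the part of CArG boxes in either result was not tested. The letters searched were CCNNNNNNGG with at least 5 of the 6 middle letters A or T. This form reads the same on both strands, and sites could overlap. RefSeq (GRCr8) gave 300 bases around the start of 5 members (250 before and 50 after it). The set of promoter windows used here held none for MYH11, MYL9 and TAGLN, so that theirs were not searched. The sequences of ACTA2, CNN1 and OXTR are shown, an actin, an actin-binding protein and the receptor, on the strand of the gene and with matches in capitals.
ACTA2: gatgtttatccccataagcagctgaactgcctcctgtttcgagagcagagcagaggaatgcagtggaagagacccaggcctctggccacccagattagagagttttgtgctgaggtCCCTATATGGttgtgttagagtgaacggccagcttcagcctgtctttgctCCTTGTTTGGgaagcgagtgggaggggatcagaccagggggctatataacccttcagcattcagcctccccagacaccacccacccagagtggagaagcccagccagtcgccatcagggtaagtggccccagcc
CNN1: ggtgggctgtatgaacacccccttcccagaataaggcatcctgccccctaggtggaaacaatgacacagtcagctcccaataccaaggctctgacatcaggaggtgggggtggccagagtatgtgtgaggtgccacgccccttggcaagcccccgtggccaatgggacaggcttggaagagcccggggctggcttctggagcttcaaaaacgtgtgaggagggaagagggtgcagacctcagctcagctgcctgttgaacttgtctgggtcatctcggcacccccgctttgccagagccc
OXTR: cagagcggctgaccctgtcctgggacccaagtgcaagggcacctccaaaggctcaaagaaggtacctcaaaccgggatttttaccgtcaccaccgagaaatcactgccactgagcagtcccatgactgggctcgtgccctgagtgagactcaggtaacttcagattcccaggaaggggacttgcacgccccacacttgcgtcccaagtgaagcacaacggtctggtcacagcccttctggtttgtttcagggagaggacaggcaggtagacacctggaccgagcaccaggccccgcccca
They lie at chr1:241172454-241172753 (minus strand), chr8:28908187-28908486 (plus strand) and chr4:147170450-147170749 (minus strand). ACTA2 held 2 matches, CCCTATATGG at bases -134 to -125 and CCTTGTTTGG at -84 to -75 from the start. No match was found in the windows of ACTG2, CNN1, MYLK or OXTR. The ACTG2 window runs into its coding sequence, and sites near any other start of these genes were not searched. Of all 33469 promoter windows of this length, 9.42% held at least 1 match and 0.846% held 2 or more. A match is a run of letters and not a measured binding site.

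Bulk libraries held 4194912 to 52314784 reads on genes. In 85 of them, of the adult and E2 experiments, a further 23.1 to 42.5% of reads were assigned to no gene. The adult, young and NMU values may have been normalized apart, so that levels were compared within a data set only. Single-cell tables held 16762 cells (ACI, sorted), 39766 cells (SD, sorted) and 103524 cells (SD, whole gland), of which 0.418%, 1.09% and 12.1% carried a barcode that occurred in more than 1 library of the set (at most 2.51% between 2 libraries). In sorted SD luminal samples, vehicle replicate 1 stood apart by basal genes, KRT5 included (3625 against 235 to 432 in the other 3). Among adult basal samples, vehicle virgin replicate 1 was rich in the luminal keratin KRT18 (normalized value 31330 against 3614 to 5419). Replicate 3 of the day 7 vehicle ACI rats is called treated in its description and control elsewhere, and was kept as vehicle. In bulk samples, fewer cells of a type and less RNA per cell cannot be told apart.

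In whole glands of young SD rats (3 vehicle and 6 TGFBRi rats), cells were clustered without the 8 genes and without 17 further contractile genes, and classes were named from markers that include none of them. Basal-like cells (9389), vascular smooth muscle-like cells (1256) and pericyte-like cells (4096) then had the highest median level of every member but OXTR among the named classes. Levels are CPM (UMIs per 1000000 UMIs of a class in a rat), given as the median and range over the 9 rats. These medians pool both treatments, most of the rats being TGFBRi rats, and levels by treatment are given further on. ACTA2, the α smooth muscle actin, stood at 8299 CPM in basal-like cells (4171 to 12951), 10134 in vascular smooth muscle-like cells (3622 to 11820.4) and 4568 in pericyte-like cells (1688 to 7521). It fell to 125 in fibroblast-like, 36.4 in endothelial-like, 23.7 in B-like and 19.2 in luminal-like cells. Adipocyte-like cells (206 in all, 3 to 57 a rat) were uneven, with ACTA2 at 13419 and 10963 CPM in vehicle replicates 1 and 2 and 249 in replicate 3. Summed over rats, every member but ACTA2 and OXTR was higher there than in basal-like cells. ACTG2 stood at 2455 against 983 CPM, MYH11 at 2532 against 817 and CNN1 at 1219 against 1063. The muscle genes DES (1369 against 1251 CPM) and TPM2 (5187 against 2952) were also above vascular smooth muscle-like cells, so that the name of this class is uncertain. Almost every basal-like cell carried an ACTA2 UMI (median of rats 99.2%), against 4.33% of B-like cells, at median depths of 7040 and 2372 UMIs a cell. With cells thinned to 1000 UMIs the shares were 96.6% and 1.90%. B-like cells serve here as a rough guide to free RNA, which was not itself measured.

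MYH11, the myosin heavy chain, had the largest difference in favour of vascular smooth muscle-like over basal-like cells, at 973 CPM in basal-like cells (285 to 1602), 3611 in vascular smooth muscle-like cells (1803 to 5869) and 582 in pericyte-like cells (338 to 1443). The ranges of basal-like and vascular smooth muscle-like cells did not meet. CNN1 went the other way, at 1301 CPM (510.3 to 1662) in basal-like, 259 (166 to 424) in vascular smooth muscle-like and 87.8 (52.5 to 237) in pericyte-like cells. ACTG2 followed the order of CNN1, with medians of 1098, 600.1 and 184 CPM. TAGLN (4529.8, 10517 and 4520.5 CPM), MYL9 (2074, 5077 and 2945 CPM) and the kinase gene MYLK (557, 805 and 322 CPM) were each highest in vascular smooth muscle-like cells.

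OXTR, the receptor that starts milk ejection, was rare outside basal-like cells. Basal-like cells held 2333 OXTR UMIs over all rats, 32.7 CPM with an exact 95% binomial interval of 31.3 to 34 that covers counting error only. This sum pools vehicle and TGFBRi rats, and every vehicle rat lay well below it, as given by treatment further on. Vascular smooth muscle-like cells held 5 (0.867 CPM, 0.282 to 2.02), pericyte-like cells 8 (0.385 CPM, 0.166 to 0.758), luminal-like cells 59 (0.358 CPM, 0.273 to 0.462) and B-like cells 1 (0.0175 CPM). Per rat, OXTR ran from 4.66 to 112 CPM in basal-like cells, and 18.5% of them carried a UMI (median of rats) against 0.398% of luminal-like cells. At 1000 UMIs a cell the share was 2.71% in basal-like cells, with a median of 0 in each of the other classes named here.

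**Figure D1:**
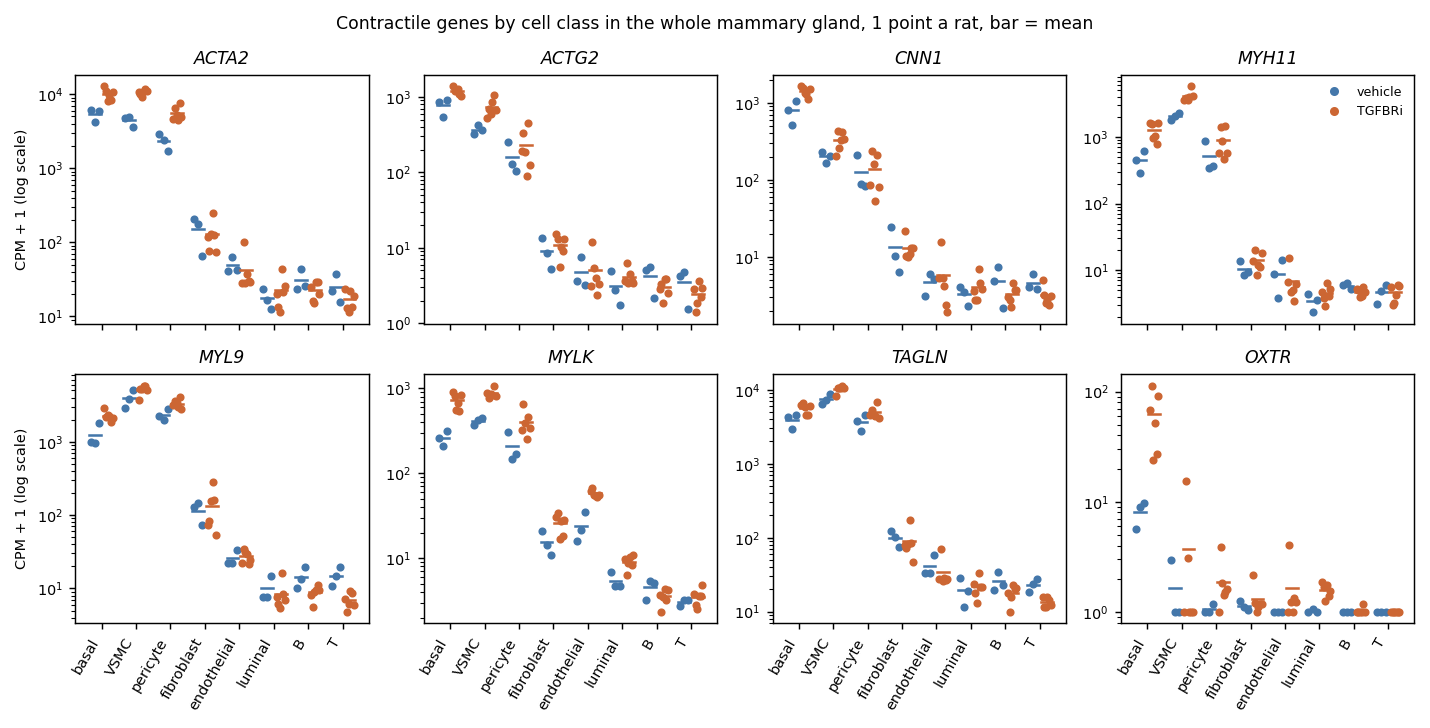
Level of each of the 8 genes in classes of whole-gland cells of SD rats, as CPM + 1 on a log scale. Each point is 1 rat (3 vehicle in blue, 6 TGFBRi in orange) and each bar the mean. In every rat, basal-like, vascular smooth muscle-like and pericyte-like cells stood above all other classes shown for every gene but OXTR, which ran from 4.66 to 112 CPM in basal-like cells and from 0 to 14.3 in the other classes.

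Between classes, with treatment as a covariate, edgeR called 7 of 8 members between basal-like and vascular smooth muscle-like cells at an adjusted p of 0.1 or less, where 65.2% of 10125 genes tested were called. Higher in basal-like cells were OXTR (log2 fold change 5.20 ± 0.77 SE, adjusted p = 1.05e-05), CNN1 (2.05 ± 0.15, 2.26e-11) and ACTG2 (0.83 ± 0.14, 1e-05). With finer clusters (Leiden resolution 1.5) ACTG2 gave 0.08 and was no longer called. Lower were MYH11 (-1.87 ± 0.19, 3.1e-08), MYL9 (-1.33 ± 0.16, 1.24e-07), TAGLN (-0.88 ± 0.12, 1.12e-06) and MYLK (-0.39 ± 0.14, 0.0214). ACTA2 gave 0.07 ± 0.11 and was not called (adjusted p = 0.632). Only 16 to 426 vascular smooth muscle-like cells came from each rat, so that the values of their rare genes are imprecise.

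Against pericyte-like cells, 6 of 8 members were called, where 67.8% of 11058 genes were. OXTR (6.27), CNN1 (3.05), ACTG2 (2.28), ACTA2 (0.90) and MYLK (0.59) were higher in basal-like cells on the log2 scale and MYL9 was lower (-0.78). MYH11 (0.18 ± 0.28) and TAGLN (0.04 ± 0.13) did not pass the test (adjusted p = 0.605 and 0.793). All 7 members tested between the mural classes were higher in vascular smooth muscle-like cells, where 24% of 7229 genes were higher, from 0.61 for MYL9 to 2.09 for MYH11. OXTR was too rare for that test. The luminal keratins KRT8 (1.39), KRT18 (1.99) and KRT19 (1.68) were higher in the same direction, and their part in the result was not tested. Since the classes were compared in the same rats, the fits were repeated with rat as a block, which changed no call.

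The other contractile genes were mostly lower in basal-like than in vascular smooth muscle-like cells. Of 17, 2 were higher and 10 lower in basal-like than in vascular smooth muscle-like cells, with a median log2 fold change of -0.65 against 0.10 over all genes tested, of which 36% were higher and 29.3% lower. DES (desmin, the muscle intermediate filament protein) was lower by a log2 difference of -8.64, SYNM (synemin) by -2.29 and LMOD1 (leiomodin) by -2.29. Of 12 regulators of contraction tested, 8 were lower and none higher, led by MYOCD (myocardin, the partner of serum response factor in smooth muscle, -7.65), PPP1R14A (-3.44) and PPP1R12B (-2.82), which encode an inhibitor and a subunit of myosin phosphatase. Among the other actins, ACTG1, the cytoplasmic γ-actin, was higher in basal-like cells (1.76). Against pericyte-like cells the contractile list gave 7 higher and 7 lower of 17 and the regulators 2 higher and 6 lower of 12, where 35.2% of all genes were higher and 32.7% lower. Between the mural classes, 13 contractile genes were higher and 1 lower in vascular smooth muscle-like cells, and 9 of 11 regulators were higher.

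TGFBRi-treated rats had higher levels of all 8 members in whole-gland basal-like cells at day 0, where 29.2% of 11290 genes were higher. The values of 7 members did not overlap between the groups, which held for 17% of genes in that direction. ACTA2 stood at 6033, 4171 and 5839.7 CPM in vehicle rats and at 8021, 10312 and 12951 (lowest, median, highest) in TGFBRi rats, a log2 fold change of 1.01 ± 0.19 (edgeR, adjusted p = 0.00194). MYH11 went from 452, 285 and 609 CPM to 776, 1289 and 1602 (1.57 ± 0.32, adjusted p = 0.00290). Every TGFBRi rat lay above every vehicle rat in both genes. MYLK, the kinase of the light chain, went from 263, 209 and 315 CPM to 539, 744 and 906 (1.54 ± 0.22, adjusted p = 0.000424). OXTR rose most on this scale, from 4.66, 7.88 and 8.66 CPM to 23, 59.1 and 112 (3.27 ± 0.61, adjusted p = 0.00218). MYL9 (0.93), CNN1 (0.91), ACTG2 (0.71) and TAGLN (0.61) rose less, and TAGLN was the member whose groups overlapped. Of the 3 luminal keratins, KRT8 (-0.63) and KRT18 (-0.52) were lower in the same sums and KRT19 gave 0.31 (not called). Of 4 basal markers, 2 were called higher and 1 lower, with a median of 0.42 against 0.07 over all genes. The part of either set of markers was not tested.

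The basal-like cells of the 2 groups lay mostly in different clusters, and the part of this in the 8 values was not tested. Of basal-like cells, 10.6 to 42.9% per vehicle rat and 82.4 to 98.3% per TGFBRi rat were in the largest cluster, led by IL17B, SHROOM3 and KRT14. A cluster led by FST, KRT17 and NRG1 held 53.6 to 85.6% and 1.44 to 3.69%, and a cycling cluster led by CCNA2, CENPF and MKI67 held 3.57 to 16.8% and 0.206 to 13.9%. Within vehicle rats, ACTA2 stood at 3929 to 9144 CPM in the largest cluster, 4719.6 to 6054 in the FST cluster and 2577 to 4061 in the cycling cluster. MYLK stood at 237 to 562, 222 to 259.98 and 139.5 to 235 CPM in the same order, and OXTR at 15.3 to 19.9, 3.97 to 8.85 and 1.86 to 15.9. In the largest cluster alone, all 8 fold changes were still above 0 but only MYLK was called (0.90, adjusted p = 0.0880 in edgeR). The share of all genes called in that fit was not counted. ACTA2 gave 0.59 (adjusted p = 0.208), MYH11 0.84 (0.271) and OXTR 1.87 (0.154), and ACTG2, CNN1, MYL9 and TAGLN lay between 0.11 and 0.32. Adipocyte-like and unnamed cells were not used for these tests, and unnamed clusters held 4.53 to 7.79% of a rat's cells.

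**Figure D2:**
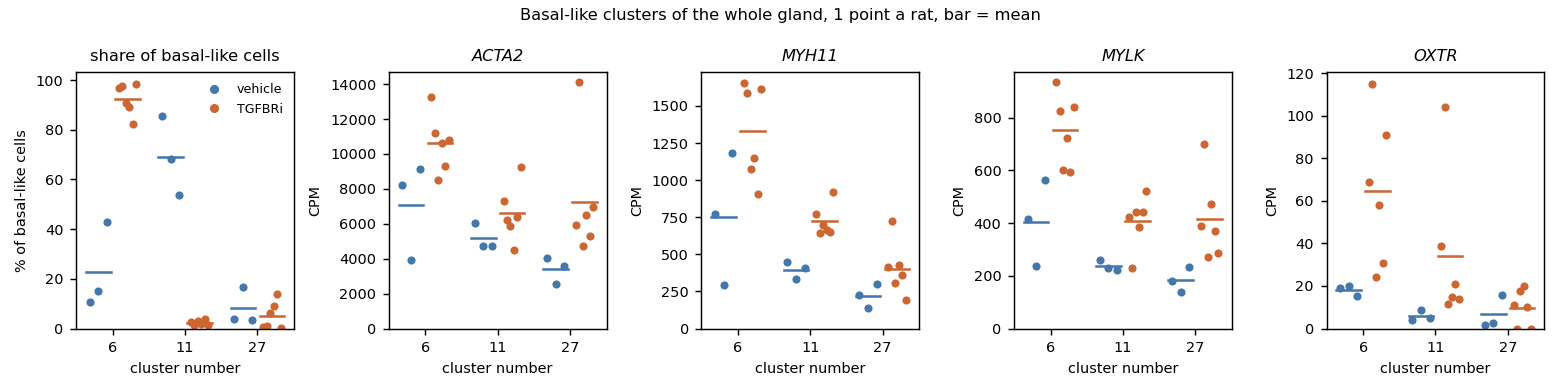
Share of basal-like whole-gland cells in each of 3 clusters (percent of a rat's basal-like cells) and CPM of ACTA2, MYH11, MYLK and OXTR within each cluster, 1 point a rat (vehicle in blue, TGFBRi in orange). TGFBRi rats had 82.4 to 98.3% of these cells in the largest cluster (6) and vehicle rats 53.6 to 85.6% in the FST cluster (11).

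The mural classes were tested the same way. In vascular smooth muscle-like cells 6 of 7 members tested were higher in TGFBRi-treated rats, where 16% of 5544 genes were higher, and 4 of them did not overlap between groups, where 9.24% of genes were so in that direction. ACTA2 went from 4791, 4923 and 3622 CPM to 9038, 10929 and 11820.4 (lowest, median, highest), a log2 fold change of 1.21 ± 0.13 (edgeR, adjusted p = 6.8e-06). ACTG2 (0.96), CNN1 (0.70), MYH11 (0.96), MYLK (1.01) and TAGLN (0.42) rose, and MYL9 gave 0.33 ± 0.18 (adjusted p = 0.195). All 3 luminal keratins were lower in the same vascular smooth muscle-like sums (KRT8 -1.77, KRT18 -1.50 and KRT19 -2.70), without overlap between groups, and their part in the result was not tested. At resolution 1.5, which brought in a further cluster led by FHL1 and TNNT1, 1 member was called and ACTG2 and CNN1 turned to -0.53 and -0.50. In pericyte-like cells, ACTA2 (1.08 ± 0.19, adjusted p = 0.00131) and MYLK (0.79 ± 0.30, 0.0696) were higher, 2 of 7 tested, where 19.1% of 9178 genes were higher. Without vehicle replicate 2, without TGFBRi replicate 5 or without a filter on low counts, 1 member was called. Scaled by library size alone, which moved the median of all genes from 0.03 to 0.21 and the split of called genes from 1752 higher and 1832 lower to 2669 and 1186, MYL9 (0.50) and TAGLN (0.44) were called as well. By the test of the difference itself, 0 members were called between basal-like and vascular smooth muscle-like cells, where 6.96% of 10726 genes were, or between basal-like and pericyte-like cells, where 9.98% of 11518 were (edgeR, lowest adjusted p 0.200 for MYLK against vascular smooth muscle-like cells and 0.148 for MYL9 against pericyte-like cells). The classes compared came from the same rats, and these fits held no term for rat.

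The other contractile genes and the regulators were counted in the same 3 classes, without a test of the lists. In basal-like cells 9 of 17 other contractile genes rose and 1 fell, where 29.2% of all genes rose and 25.6% fell, led by SYNM (2.18), LMOD1 (1.49) and SYNPO2 (1.06). Of 11 regulators, 6 rose and 3 fell, led by PPP1R14A (1.73), GNA11 (-1.36), a G protein subunit downstream of receptors such as the oxytocin receptor, and ITPR1 (1.24), a calcium channel of internal stores. In vascular smooth muscle-like cells 10 contractile genes rose and none fell, and 8 of 10 regulators rose, MYOCD by 2.14, where 16.0% of all genes rose and 15.1% fell. In pericyte-like cells 8 contractile genes rose and 1 fell, and 8 of 12 regulators rose, where 19.1% of all genes rose and 20.0% fell. ACTG1 fell in basal-like (-0.66) and in vascular smooth muscle-like cells (-0.81).

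**Figure D3:**
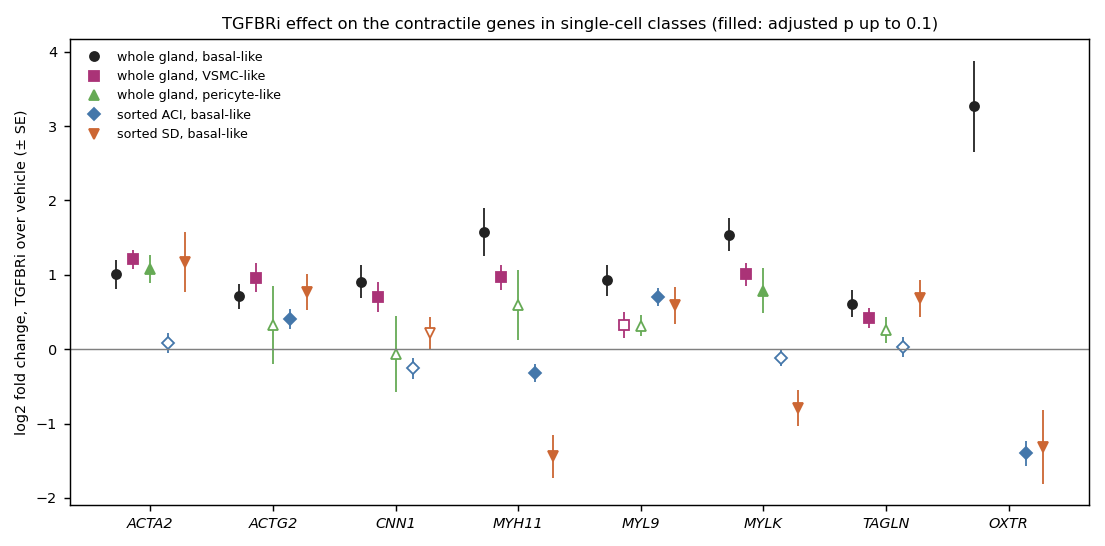
Log2 fold change of each gene between TGFBRi and vehicle rats with its standard error (edgeR, UMIs summed per rat) in whole-gland basal-like, vascular smooth muscle-like and pericyte-like cells and in sorted ACI and SD basal-like cells. Filled points have an adjusted p of 0.1 or less. OXTR, MYH11 and MYLK lay above 0 in whole-gland basal-like cells and below 0 in both sorted sets.

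In sorted basal-like cells of young rats the members went in both directions. Sorted libraries were made with a 3′ kit and kept cells with at least 2 keratin reads, whereas whole glands were run with a 5′ kit. In ACI rats (3 and 3), 4 of 8 members were called, where 43.8% of 11339 genes were. OXTR fell from 22.4, 23.4 and 16.6 CPM in vehicle rats to 6.74, 7.85 and 5.58 in TGFBRi rats (-1.40 ± 0.17, adjusted p = 0.000130). MYH11 fell from 8287, 7005 and 8052 CPM to 4936, 5798 and 5093 (-0.32 ± 0.12, adjusted p = 0.0540). MYL9 (0.71 ± 0.12, adjusted p = 0.000900) and ACTG2 (0.41 ± 0.13, 0.0298) rose. ACTA2 stood at 3731, 3623 and 4429 CPM and 4033, 3120.3 and 3372, overlapping groups that did not pass the test (0.08).

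Here too the 2 groups lay in different clusters. Vehicle rats had 41.5 to 74.2% and 24.1 to 54% of basal-like cells in clusters led by COL2A1 and by MME, where TGFBRi rats had 2.35 to 2.91% and 1.26 to 2.89%. TGFBRi rats had most of theirs in clusters led by HMOX1 and PTX3 (36.7 to 50.8%) and by AABR07048474.1 and HMOX1 (26.4 to 39%), in which vehicle rats had at most 4.06%. HMOX1 encodes a stress-responsive heme oxygenase. OXTR in vehicle rats stood at 32.8 to 38.6 CPM in the MME cluster and 8.77 to 12.5 in the COL2A1 cluster. In TGFBRi rats it stood at 9.66 to 34.02 and 9.53 to 16.6 in the same clusters. Within the COL2A1 cluster the groups overlapped (median 11.8 in TGFBRi and 9.34 in vehicle rats). In the HMOX1 and PTX3 cluster it stood at 6.11 to 8.73 in TGFBRi and 0 to 12.03 in vehicle rats. The TGFBRi values of the MME and COL2A1 clusters rest on the few cells given above. The vehicle values of the HMOX1 and PTX3 cluster rest on 0.293 to 4.06% of a rat's basal-like cells. At these CPM such sums hold few OXTR UMIs, and whether OXTR fell within clusters was not tested. Unnamed cells made up 11.5 to 18.2% of the vehicle and 1.27 to 3.31% of the TGFBRi basal sorts. KRT17 (0.35) rose and KRT5 (-0.32), KRT14 (-0.38), TP63 (-0.70) and the luminal KRT19 (-1.11) fell in the same sums, while KRT8 (0.27) and KRT18 (-0.15) were not called. The part of these shifts in the fold changes was not tested.

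In sorted basal-like cells of SD rats (3 and 6), 7 of 8 members were called, where 35.8% of 11954 genes were. MYH11 fell from 3791, 2910.4 and 5501 CPM to 637, 1196 and 1738 (lowest, median, highest), by a log2 fold change of -1.44 ± 0.28 (adjusted p = 0.00954). MYLK fell from 1580.2, 1248 and 1940.4 CPM to 485, 663 and 1048 (-0.79 ± 0.24, adjusted p = 0.0344). Neither gene's groups overlapped, 2 of 8 members, where 29.4% of genes were lower without overlap. OXTR also fell (-1.32 ± 0.49, adjusted p = 0.0683), from 4.71, 2.49 and 9.08 CPM to 0.941, 1.29 and 3.80. ACTA2 rose (1.17 ± 0.40, adjusted p = 0.0537), but its values were uneven, at 2334, 1830.3 and 2069 CPM in vehicle rats and 1951, 2636, 2460.4, 5655, 5756 and 2244 in TGFBRi rats, of which 2 stood far above the rest. ACTG2 (0.77), TAGLN (0.68) and MYL9 (0.59) rose and CNN1 gave 0.22 ± 0.22 (adjusted p = 0.480).

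The groups again lay in different clusters. A cluster led by COL4A2 and IL17B held 75.6 to 83% of the basal-like cells of vehicle rats and 0.529 to 54.6% of those of TGFBRi rats, and one led by AABR07048474.1 held 0.319 to 2.77% and 3.59 to 66.1%. Within the first, MYH11 stood at 3109 to 5618 CPM in vehicle and 982 to 3027 in TGFBRi rats, and in the second at 792 to 1473 and 581 to 1074. Of the 3 luminal keratins, KRT8 (0.98) and KRT18 (1.26) rose in the same sums and KRT19 gave -0.63 (not called). Of 4 basal markers, 2 were called higher and 2 lower, with a median of -0.16 against 0.05 over all genes. The part of either set of markers in the result was not tested. One of the 2 TGFBRi rats with high ACTA2 gave 98.2% of a cluster led by HMOX1, and in the other 39.6% of the basal sort was unnamed and 270 cells were basal-like. Without vehicle replicate 1 or 3, 1 member was called, and without vehicle replicate 2, 4 were. Scaled by library size alone, which moved the median of all genes to -0.345, ACTA2, ACTG2, MYL9 and TAGLN were no longer called, CNN1 turned from 0.22 to -0.20, and the split of all called genes went from 2154 higher and 2130 lower to 646 and 4122. In ACI rats the same scaling gave a median of -0.268, turned ACTA2 from 0.08 to -0.16 and TAGLN from 0.03 to -0.21, ended the call of ACTG2 (0.17), and moved the split from 2338 higher and 2625 lower to 1127 and 4830. It also called CNN1 (-0.50, edgeR, adjusted p = 0.00759) and MYLK (-0.36, 0.0133) lower, which the main fit did not call. MYH11, MYLK and OXTR in SD rats, and MYH11, OXTR and MYL9 in ACI rats, were called under either scaling in the same direction.

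The difference in response between whole-gland and sorted SD basal-like cells was itself tested by edgeR. Called were OXTR (whole gland minus sorted 4.68 ± 0.81 on the log2 scale, adjusted p = 0.000342), MYH11 (3.05 ± 0.46, 0.000115), MYLK (2.36 ± 0.34, 8.41e-05) and CNN1 (0.72 ± 0.31, 0.0706), 4 of 8 where 47.7% of 12101 genes were called. ACTA2 (-0.13), ACTG2 (-0.04), MYL9 (0.37) and TAGLN (-0.05) were not. The rats, the kit and the sort all differ between the 2 data sets and cannot be told apart. Of the other contractile genes, 2 rose and 3 fell in sorted ACI cells and 3 rose and 5 fell in sorted SD cells, of 17 in either set, where 20.6% of genes rose and 23.2% fell in ACI and 18.0% and 17.8% in SD. SYNPO2 was lower in both (-1.05 and -1.41). Of 11 regulators, 1 rose and 3 fell in ACI and none rose and 5 fell in SD, with MRTFA, a coactivator of serum response factor, at -1.42 and -1.60. Sorted SD basal libraries also held 373 vascular smooth muscle-like cells, 5 to 143 a rat, which the keratin filter had kept and which were left out of these sums.

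In bulk samples the members separated sorted basal from luminal cells. Values are reads divided by the authors' size factor, tested on log2(value + 1) by limma. All 8 members were higher in basal cells of vehicle ACI rats at day 0, where 12.4% of 15824 genes were called higher, and none overlapped, as for 24.7% of genes. ACTA2 stood at 8703, 6138 and 7159.6 in basal and 18.0, 5.83 and 25.7 in luminal samples (log2 fold change 8.91 ± 0.61, adjusted p = 1.47e-11). MYH11 stood at 76224, 63962 and 89488 and 125, 40.1 and 114 (9.82 ± 0.75, 8.25e-11), and OXTR at 636, 852 and 608 and 76, 78 and 85.4 (3.10 ± 0.84, 0.00694). In young SD rats all 8 were higher again, where 26.9% of 13400 genes were called higher and 27.7% did not overlap in that direction. Fold changes ran from 4.27 for TAGLN to 8.08 for MYH11, with vehicle luminal replicate 1 high in both members and basal keratins (ACTA2 2727 against 115 to 198). With rat as a block all 8 calls remained in both strains. Of 15 other contractile genes, 14 were higher in ACI and 13 in SD basal cells, LMOD1 by 8.22 and TPM2, a tropomyosin, by 8.12 in ACI. MYOCD was higher too (4.00 in ACI and 2.94 in SD). Summed over the whole-gland rats it stood at 0.154 CPM in basal-like, 35.4 in vascular smooth muscle-like and 10.8 in pericyte-like cells. The part of mural cells within the basal gate in the bulk values was not tested.

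At day 0, basal samples of TGFBRi-treated young ACI rats held lower values of the members, but none passed the test in limma (adjusted p 0.102 to 0.755), where 3.34% of 15643 genes did. At an unadjusted p under 0.05 there were 4, and edgeR and DESeq2 called 0. The TGFBRi libraries, in the order of the values below, held 6562769, 4194912 and 15136358 reads against 12382292 to 18781674 in vehicle, and with reads thinned to the smallest library edgeR called 0 as well. CNN1 stood at 41151, 46514 and 35902 in vehicle and 25152, 16126 and 9443 in TGFBRi rats (-1.39 ± 0.49, adjusted p = 0.102). TAGLN stood at 32533, 39862 and 27526 and 16942, 8978 and 5699 (-1.79 ± 0.71, 0.133), ACTG2 at 24351, 33746 and 26620.5 and 18511, 7365 and 5032 (-1.66 ± 0.73, 0.168), and ACTA2 at 8703, 6138 and 7159.6 and 4986, 3873 and 4024 (-0.77 ± 0.46, 0.302). The groups of these 4 and of MYL9 did not overlap, 5 of 8 members, where 15.7% of genes were lower without overlap. MYH11 (-0.49), MYLK (-0.33) and OXTR (-1.01) overlapped. The median over the members was -1.20 against 0.30 over all genes tested. The basal keratin KRT5 moved with them, from 21987, 22126 and 16839 to 9412, 9677 and 4474, and its part in these values was not tested. With only these 2 groups in the fit, limma called 4 members, ACTA2 (adjusted p = 0.0296), ACTG2 (0.0458), CNN1 (0.0137) and TAGLN (0.0114). The share of all genes called in that fit was not counted, and the 3.34% above belongs to the fit of all groups.

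On day 7 after the last dose all 8 members were higher in TGFBRi than in vehicle rats, from 0.33 to 1.65 on the log2 scale, and on day 14 all 8 were lower (-0.97 to -0.14). None passed limma's test on either day, where 0.00639% and 0% of genes did, and on either day 0 had an unadjusted p under 0.05 and edgeR and DESeq2 called 0. The groups overlapped in all members but MYLK on day 7, when 7.9% of genes were higher without overlap, and in all on day 14. ACTA2 stood at 1248, 5842 and 2553 in vehicle and 4854, 5113 and 4120.1 in TGFBRi rats on day 7, and at 17294, 6299 and 12710.2 and 7939, 10384 and 12581 on day 14. The change of the treatment effect from day 0 was above 0 for all 8 members on day 7 (median 2.00) but was called for none by limma, edgeR or DESeq2 (4 at an unadjusted p under 0.05, lowest adjusted p 0.700), where 0% of genes were. On day 14 none was called by any of the 3 tools and none had an unadjusted p under 0.05, where 0.00639% of genes were called. In young SD rats the members lay near 0 (-0.20 to 0.32), none was called by limma, edgeR or DESeq2, none had an unadjusted p under 0.05, and 0% of genes were called. ACTA2 stood there at 17247, 15478, 18389 and 17073 in vehicle and 15330.3, 26280.4, 10196 and 18837 in TGFBRi rats.

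Vehicle ACI rats were also compared by day. On day 7 all 8 members were lower than on day 0, and 7, all but OXTR, did not overlap, where 12.2% of genes were lower without overlap. MYH11 stood at 76224, 63962 and 89488 on day 0, 7392, 28719.7 and 2058 on day 7 and 18649, 43295 and 71369 on day 14, a difference of -3.32 ± 0.84 from day 0 to day 7 (adjusted p = 0.123). ACTA2 differed by -1.45 ± 0.46 (0.210). None passed limma's test (4 at an unadjusted p under 0.05, 0 in edgeR, 1 in DESeq2, MYH11), where 0.192% of genes did. All 15 other contractile genes lay below 0 as well (median -1.19 against -0.03 over all genes), and none was called. Without day 7 replicate 2, limma called ACTA2 (-2.02, adjusted p = 0.0417) and MYH11 (-4.28, 0.0265). The third value of each day 7 vehicle group is the rat whose labels disagree. By day 14, 7 of 8 members were above day 0 and 3 of 8, CNN1, MYL9 and TAGLN, did not overlap, where 8.61% of genes were higher without overlap. None was called by limma, edgeR or DESeq2, none had an unadjusted p under 0.05, and 0.0384% of genes were called.

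**Figure D4:**
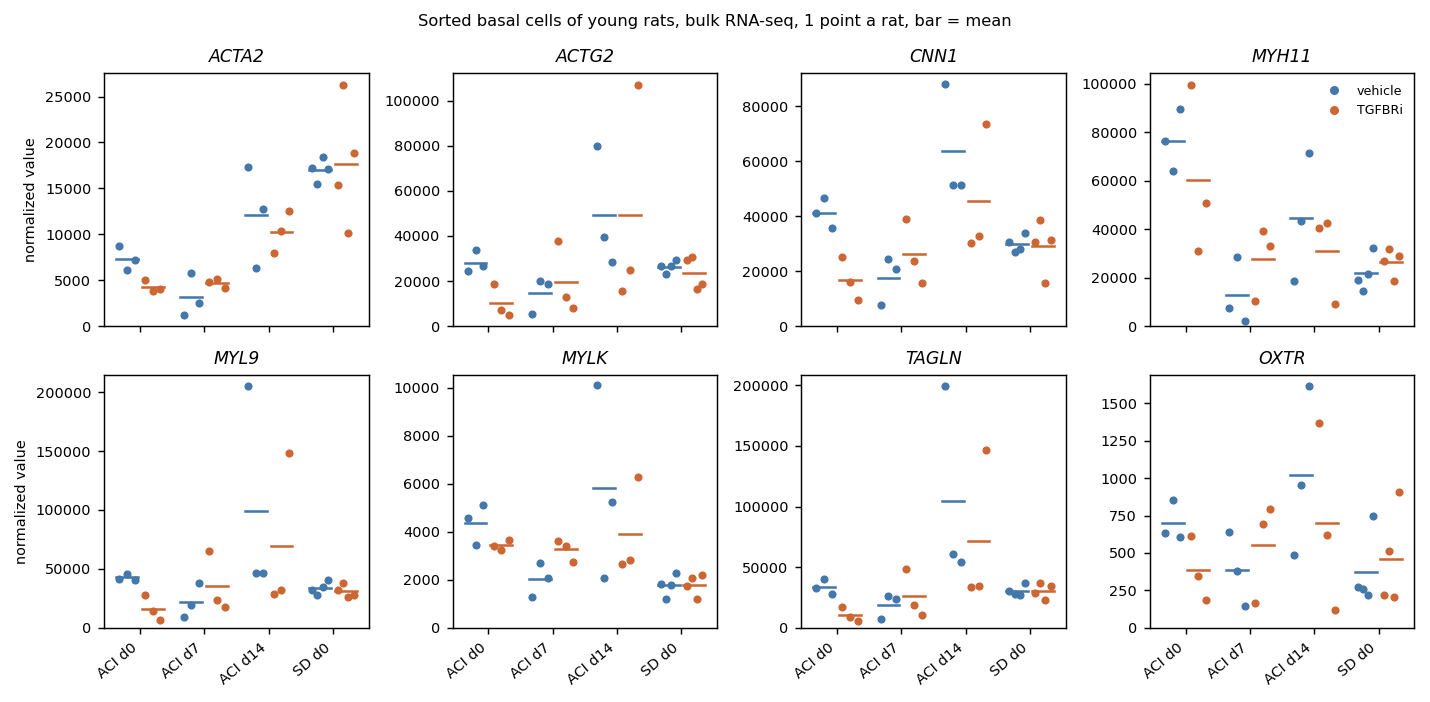
Normalized value of each gene in sorted basal samples of young rats, 1 point a rat (vehicle in blue, TGFBRi in orange), for ACI rats on days 0, 7 and 14 after the last dose and SD rats on day 0. CNN1 of TGFBRi-treated ACI rats lay below all vehicle rats on day 0 (9443 to 25152 against 35902 to 46514) and the groups overlapped on days 7 and 14.

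In adult virgin ACI rats the α smooth muscle actin gene rose with TGFBRi. ACTA2 stood at 6701, 13512, 11851 and 12357 in vehicle virgin and 34658, 66635, 34213 and 34689 in TGFBRi virgin rats, a log2 fold change of 1.92 ± 0.28 (limma, adjusted p = 0.00127), with no overlap. It was the only member called by limma, edgeR or DESeq2, where 8.73% of 13442 genes were called by limma (2 members at an unadjusted p under 0.05). MYH11 stood at 40771, 90786, 84315 and 66035 and 41782, 62358, 37442 and 16594 (-0.92 ± 0.33, 0.0914), and the 6 other members lay between -0.55 and 0.47. Over all genes the median was -0.25. Without vehicle virgin replicate 1, the library rich in KRT18, MYH11 was called as well (-1.16, adjusted p = 0.0443). Without TGFBRi virgin replicate 2, MYH11 (-1.19, adjusted p = 0.0242) and CNN1 (-0.82, 0.0364) were. In the same comparison 4 of 15 other contractile genes rose and 2 fell, among them PDLIM7 (1.87), FLNA (filamin A, -1.76) and SYNPO2 (-1.68). The basal keratin KRT5 was lower in TGFBRi virgin rats (19332, 54700.3, 61020.2 and 57822 against 13917, 35548, 12370.3 and 20739), with its lowest vehicle value in the library rich in KRT18.

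In parous rats no member passed the test of TGFBRi against vehicle. ACTA2 stood at 12779.5, 17566, 29165 and 17363 in vehicle and 14406, 17779.9, 18577 and 19166 in TGFBRi rats (-0.08 ± 0.28), and none of the 8 had an unadjusted p under 0.05 or was called by limma, edgeR or DESeq2, where 0.00744% of genes were. The difference between the effects in parous and virgin rats was called for ACTA2 alone (-2.0 ± 0.40, adjusted p = 0.0301), where 1.04% of genes were called. It was lost without any 1 of 6 rats (vehicle virgin or parous replicate 3, or any TGFBRi parous rat), at adjusted p up to 0.066. SYNPO2 (2.28), FLNA (1.76) and PDLIM7 (-1.75) were called in the same test.

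In vehicle rats no member passed the test of parous against virgin rats. None was called by limma, edgeR or DESeq2 (2 at an unadjusted p under 0.05), and 0% of genes were. OXTR gave the largest difference, at 3823, 7772, 10627 and 10638 in virgin and 9638, 11116, 20622 and 16432 in parous rats (0.86 ± 0.41, adjusted p = 1.00), overlapping groups. In TGFBRi-treated rats, 2 members were called between parous and virgin rats, where 12.1% of genes were. ACTA2 was lower in parous rats (-1.23 ± 0.28, adjusted p = 0.0116) and MYH11 higher (1.28 ± 0.33, 0.0201), at 79379.6, 89260, 76448 and 102996 in parous and 41782, 62358, 37442 and 16594 in virgin rats. Neither gene's groups overlapped, where 14.2% of genes did not in either direction, and the median over all genes was 0.24. With only the 2 groups in the fit, or without TGFBRi parous replicate 4, ACTA2 alone was called. Of 15 other contractile genes, 4 were higher and 3 lower in these parous rats, led by SYNPO2 (2.54), FLNA (1.77) and DES (1.52). OXTR ran from 3373 to 20622 in adult basal samples, and from 117 to 1616 in young ones, on scales that may differ and were not compared.

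**Figure D5:**
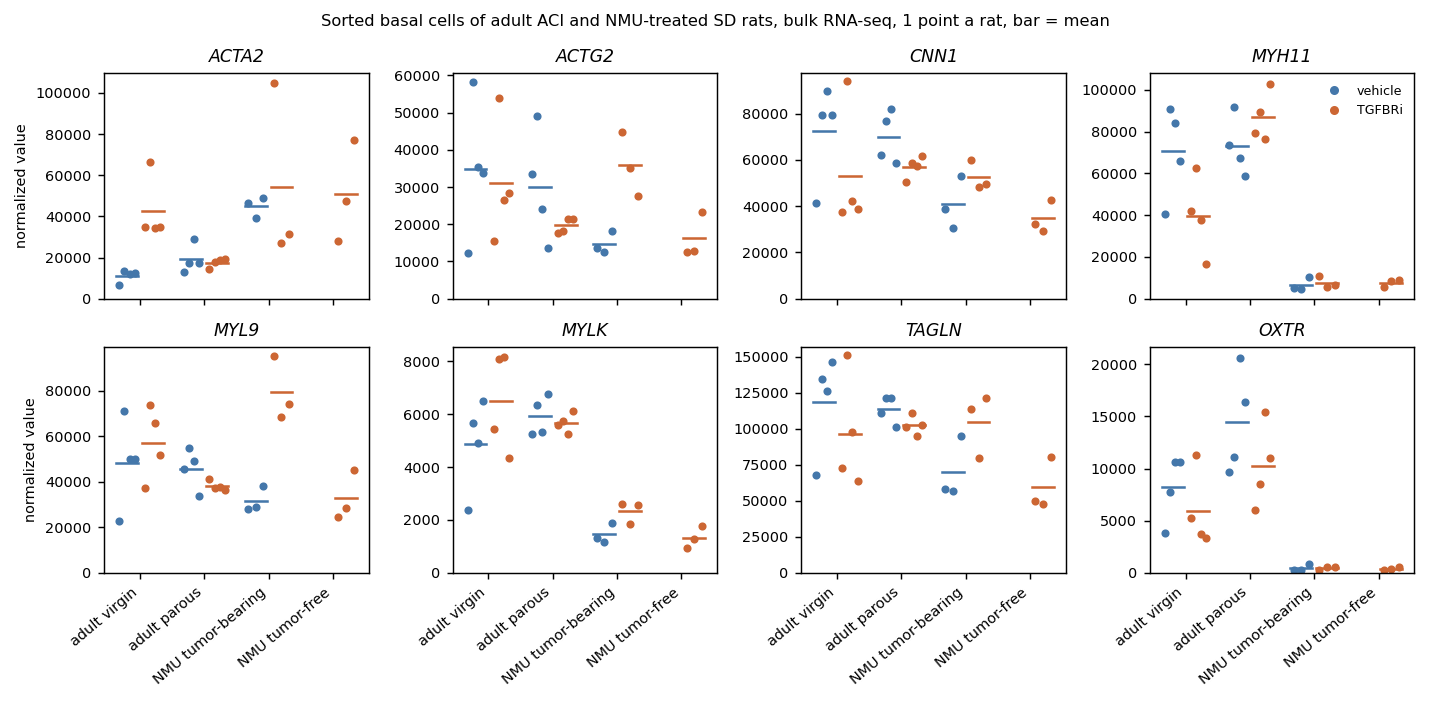
Normalized value of each gene in sorted basal samples of adult ACI rats (virgin or parous) and of SD rats given NMU, 1 point a rat (vehicle in blue, TGFBRi in orange). The 4 TGFBRi virgin rats held 34213 to 66635 of ACTA2, above all other adult basal samples, and the 2 experiments may have been normalized apart.

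After NMU, tumor-bearing TGFBRi rats had higher MYL9 and ACTG2 in basal cells than tumor-bearing vehicle rats, where 1.31% of 13312 genes were called. MYL9 stood at 27949.6, 29073 and 37957 in vehicle and 95579.9, 68617 and 74426 in TGFBRi rats (limma, 1.33 ± 0.25, adjusted p = 0.0305), and ACTG2 at 13560.4, 12598 and 18142 and 44877, 35067 and 27519 (1.27 ± 0.27, 0.0437). Neither overlapped, where 9.78% of genes were higher without overlap, and edgeR and DESeq2 each called 2 members. Their shares of all genes called were not counted (the 1.31% is limma's). Without a filter on low values MYL9 alone was called. None was called without any 1 vehicle rat or without TGFBRi replicate 3, and MYL9 alone without TGFBRi replicate 2. ACTA2 was uneven, at 46736, 39065 and 48725 and 104665, 26872 and 31272. The median over all genes was -0.25 and no other contractile gene of 15 was called. Between basal cells of tumor-free TGFBRi and tumor-bearing vehicle rats limma called no member (-0.24 to 0.27), with 0 at an unadjusted p under 0.05, 0 in edgeR, 0 in DESeq2 and 0% of genes called.

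Outside the basal gate members passed the test in 2 treatment comparisons, both of CD45+ cells, and basal keratins are given beside them. In CD45+ cells of young ACI rats on day 0, 7 of 8 members were lower in TGFBRi-treated rats, all but OXTR, where 2.01% of 14761 genes were lower. ACTA2 stood at 75.3, 204 and 117 in vehicle and 5.12, 8.41 and 4.41 in TGFBRi samples (-4.18 ± 0.57, adjusted p = 0.00143). The 7 ranged from -5.30 for ACTG2 to -3.52 for TAGLN. KRT5 stood at 318, 1345 and 319.8 and 12.8, 12.1 and 15.4 in the same samples, and KRT14 at 1661, 4959 and 1362 and 42.7, 27.1 and 105.9. Their part in the result was not tested. In CD45+ cells of NMU-treated glands, ACTG2 was the member called in tumor-bearing TGFBRi rats (4.00 ± 0.54, adjusted p = 0.0436), where 0.015% of 13297 genes were. ACTA2 stood there at 19776, 1733 and 1473, 1 sample far above the others, against 695, 372 and 566 in vehicle rats. KRT5 stood at 21494, 3155 and 2736 and 480.3, 903 and 667 in the same samples. DESeq2 called 5 members there and edgeR 0, and their shares of all genes called were not counted (the 0.015% is limma's). Without any 1 vehicle rat or without TGFBRi replicate 2, limma called 0. In the other 20 treatment comparisons of luminal, CD45+ and tumor samples limma called no member, where 0 to 1.01% of genes were called, with 0 to 3 members at an unadjusted p under 0.05. Over all 22 limma called 8, edgeR 7 and DESeq2 12.

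OXTR showed 2 further differences in luminal samples that did not pass the test. In tumor-bearing NMU rats it stood at 66.8, 21.3 and 20.7 in TGFBRi and 0, 2.16 and 6.91 in vehicle luminal samples (3.45 ± 1.24, adjusted p = 0.170). In vehicle ACI rats with estradiol implants, which bore tumors, luminal OXTR was 51.2 to 234 against 0 to 25 without estradiol (4.13 ± 1.43, adjusted p = 0.166). In that comparison no member was called by limma, edgeR or DESeq2 (1 at an unadjusted p under 0.05), where 1.48% of 13590 genes were, and estradiol and tumors cannot be told apart. Of the basal markers in these luminal samples KRT14 was called higher with estradiol (2.25, adjusted p = 0.0196, limma), KRT5 (0.30), KRT17 (1.10) and TP63 (1.93) were not called, and their part in the OXTR difference was not tested.

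The genes whose pattern was most like the members' mean over 14 whole-gland classes, among 11399 genes with at least 10 CPM in a class and outside the lists, were MRVI1 (Pearson's r 0.962), NEXN (0.951), AABR07006724.1 (0.926), SLC2A4 (0.925) and PALM2 (0.918). All 5 had more CPM in vascular smooth muscle-like than in basal-like cells. Over the 18 young ACI basal samples, ACTA2 was followed most closely by RHOJ (0.920), PARM1 (0.899), SLC2A4 (0.878), FBXL22 (0.867) and LUZP1 (0.848) of 12390 genes. OXTR was followed by ACAD10 (0.918), NSMF (0.908), PARD6G (0.903), HEPH (0.895) and ITPKC (0.884). These are descriptions over classes or samples that share libraries and scaling.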

How the data were processed

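Bulk values were deposited as a normalized signal. Per the labels and methods, the authors aligned low-input libraries to rn6 with STAR 2.5.1b, counted reads without strand by htseq-count, kept genes with at least 10 counts across samples and divided by DESeq2 (1.30.1) size factors. Single-cell tables were deposited as UMI counts of cells that the authors had filtered (Cell Ranger 4.0.0 for sorted cells, 7.0.0 for whole glands). Their stated filters were genes in at least 10 cells, at least 100 genes and at most 15% mitochondrial UMIs a cell, and for sorted cells no PTPRC read and at least 2 keratin reads. No doublet caller was run here. An alternative left out the 6% of cells with the most UMIs.

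Bulk values were tested as log2(value + 1) with limma 3.58.1 (trend and robust, genes whose values summed to 10 or more, all groups of a fraction and data set in 1 model, adjusted p of 0.05). Dividing by the step of 1 read gave whole reads for 100% of values within 0.001, and these went into edgeR and DESeq2 (1.42.0) as alternatives. For bulk samples, shares of all genes called are limma's and were not counted for edgeR or DESeq2. Cells were clustered with Leiden (leidenalg 0.10.2, resolution 0.8) and named from at least 3 detected markers. UMIs were summed per rat and class (at least 10 cells) and tested with edgeR 4.0.16 (quasi-likelihood, TMM, filterByExpr, adjusted p of 0.1). P-values were adjusted by Benjamini-Hochberg over all genes tested, and all are two-sided. Scripts were tested on simulated data. With 3 to 6 rats a group, p-values measure the spread between these rats only.

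The 8 genes are always named, with up to 3 called genes of the largest fold change in each list. Members and lists were chosen with earlier results of these data known. Basal and luminal samples with 1 rat label come from the same rat. Their deviations from group means correlated at 0.00119 to 0.825 (median 0.499) in 18 ACI rats and at 0.0808 to 0.234 (median 0.138) in 8 SD rats. The lowest chi-square per degree of freedom among 237 pairs of replicate libraries was 20.0, so that none was counted as a duplicate. Labels of 2 rats conflicted and were read by title and characteristics for treatment, and by the majority of labels for day. SD rats called weak or strong responders were kept as 1 TGFBRi group.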

Additional observations from a re-analysis of the deposited data

Results flagged for a closer look

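Of 88 sets of values, each 1 member in 1 group or class of 4 to 10 samples, 15 had a value far from the rest. The sets were adult basal, young SD basal and young SD vehicle luminal groups, and TGFBRi rats in SD single-cell basal-like and mural classes. Other luminal groups, CD45+ groups and the E2 experiment were not searched, so that the count is not a screen of all groups. Chance gives about 1 in 20 for independent sets, but members share libraries, and 6 of the 15 values come from 1 library. In young SD luminal vehicle rats 6 members were high in the same rat, replicate 1, with ACTA2 at 2727 (group median 165), ACTG2 at 2115 (191), CNN1 at 4257 (183), MYL9 at 5751 (602), MYLK at 269 (63.8) and TAGLN at 9213 (1174). KRT5 was high in that sample as well. In adult TGFBRi virgin basal cells, ACTA2 stood at 66635 (median 34674) and CNN1 at 94251 (40451) in replicate 2. OXTR stood at 749 (median 267) in 1 young SD vehicle basal sample.

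Among the 6 TGFBRi whole glands, vascular smooth muscle-like cells of 1 rat each held MYH11 at 5869 CPM (median 3908), MYL9 at 3652 (5201), TAGLN at 8212 (10604) and OXTR at 14.3 (0). OXTR stood at 2.89 CPM in pericyte-like cells of 1 rat (median 0.571). CNN1 stood at 1606 CPM in 1 sorted SD TGFBRi rat (median 1155).

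Effects of TGFBRi differed between whole-gland and sorted SD basal-like cells by edgeR's test of the difference for OXTR (4.68 on the log2 scale), MYH11 (3.05), MYLK (2.36) and CNN1 (0.72), 4 of 8 members where 47.7% of all genes were called. The effect on ACTA2 differed between parous and virgin adult rats (-2.0, limma), where 1.04% of genes were called, and the call was lost without any 1 of 6 rats.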

How the results depend on the processing

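Over the counts of members called, 165 alternative values stayed within 1.5 times the reported count and 11 did not, leave-one-out fits aside. With only the groups compared in the fit, 4 members in place of 0 were called at day 0 in young ACI basal cells, and 1 in place of 2 between parous and virgin TGFBRi rats. Without a filter, 1 in place of 2 was called in tumor-bearing NMU rats and in pericyte-like cells. DESeq2 called 1 in place of 0 between day 7 and day 0. Library size alone gave 4 in place of 2 in pericyte-like and 3 in place of 7 in sorted SD cells. At Leiden resolution 1.5, 1 in place of 6 was called in vascular smooth muscle-like cells, with ACTG2 at -0.53 and CNN1 at -0.50, and ACTG2 lost its call between basal-like and vascular smooth muscle-like cells (0.08). In the largest basal-like cluster alone, an alternative chosen after seeing the data, 1 in place of 8 was called. In CD45+ cells of tumor-bearing NMU rats, edgeR called 0 and DESeq2 5 in place of 1. The cause was not tested for any of these, and the share of all genes called was not counted except under library size alone. Of values of single called members under an alternative, 1000 kept direction and call, 81 lost the call and 2 changed sign.

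Leaving out 1 rat at a time gave 1 to 3 called members in adult virgin rats, 0 to 2 in tumor-bearing NMU rats, 0 to 2 between day 7 and day 0, 0 to 1 for parity by treatment and 1 to 3 between parous and virgin TGFBRi rats. In single cells it gave 7 to 8 (whole-gland basal-like), 4 to 7 (vascular smooth muscle-like), 1 to 3 (pericyte-like), 3 to 5 (sorted ACI) and 1 to 7 (sorted SD). Between classes it gave 6 to 7 for basal-like against vascular smooth muscle-like cells, and 6 against pericyte-like cells and 7 between the mural classes in every fit. Basal against luminal gave 8 in every fit, and the other basal comparisons 0. In CD45+ cells it gave 6 to 7 (young ACI day 0) and 0 to 1 (tumor-bearing NMU), fits added after seeing the data, and it was not run for the other luminal, CD45+ and tumor comparisons.

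With the rat as replicate block, 8 members were called between basal and luminal cells of either strain, and 7, 6 and 7 between the 3 pairs of classes, so that the pairing changed no call. The tests of a difference in TGFBRi effect between classes were not refitted with that block. Treatment groups share replicate numbers that only name rats. Depth limits OXTR, which stood at 0 to 14.3 CPM outside basal-like cells.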
